A study of Mus musculus with 9 samples.

Results

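Neuroendocrine cells are hormone-producing cells that share features with neurons, and the genes described here are 9 genes commonly used to recognise them: Insm1, Neurod1, Chga, Chgb, Scg2, Scg3, Syp, Pcsk1 and Cpe. They were chosen by symbol, and every probe set annotated to 1 of these symbols alone was read, which gave 13 of the 34958 probe sets with 1 symbol and 9 of the 18194 genes tested. For Insm1, Neurod1, Syp and Cpe, which had a pair of probe sets each, the brighter represented the gene and the dimmer is reported beside it. The samples were thymic cells of mice, measured on 9 arrays in 3 groups of 3: ZsG plus, ZsG minus mTEC and ZsG minus cTEC. ZsG is ZsGreen, a green fluorescent protein, and mTEC and cTEC are the usual abbreviations for medullary and cortical thymic epithelial cells.

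Per the labels, all groups had the C57BL/6 background, and the reporter sat on a bacterial artificial chromosome at the ATG of Tslp, the gene of the epithelial cytokine thymic stromal lymphopoietin. The transgenic mice were used at 8 to 20 weeks of age. In such a transgene the reporter is driven by the Tslp sequences that the artificial chromosome carries, and ZsG minus cells are those without reporter signal. The sort gates, the epithelial compartment of the ZsG plus cells and the number of mice behind an array are not stated in the sources used here. Separate animals are named by no label, so a p-value speaks of the spread between arrays, part of which may be technical. The titles set the groups, although the labels' cell type is given as keratinocytes throughout. The question asked of these genes was how their levels compare between reporter-positive cells and the 2 reporter-negative epithelial groups.

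Neuroendocrine cells store peptide hormones in dense-core granules and release them on a stimulus. Granins pack the granule, prohormone convertases and carboxypeptidases cut the precursors inside it, and a small set of transcription factors sets up the programme during differentiation. In the thymus, medullary epithelial cells are known for transcribing many genes of other tissues, hormones among them, and thymic cells with neuroendocrine features have been described.

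Taken gene by gene, none of the 9 members passed the threshold, an adjusted p under 0.05 in limma, in any comparison. Among all genes 0.220% passed between ZsG plus and ZsG minus mTEC, 1.74% between ZsG plus and ZsG minus cTEC, and 0.627% between ZsG minus mTEC and ZsG minus cTEC. The members nearest to it were Chgb and Scg2, both low in ZsG minus cTEC. The geometric mean intensity of Chgb was, relative to ZsG minus cTEC, 9.61-fold higher in ZsG plus and 13.4-fold higher in ZsG minus mTEC, where the ZsG minus cTEC mean of 289 was itself a dim value. Insm1 had 4.85-fold higher intensity in ZsG minus mTEC than in ZsG plus. The plot of intensities by array shows these groups with their spread.

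**Figure D1:**
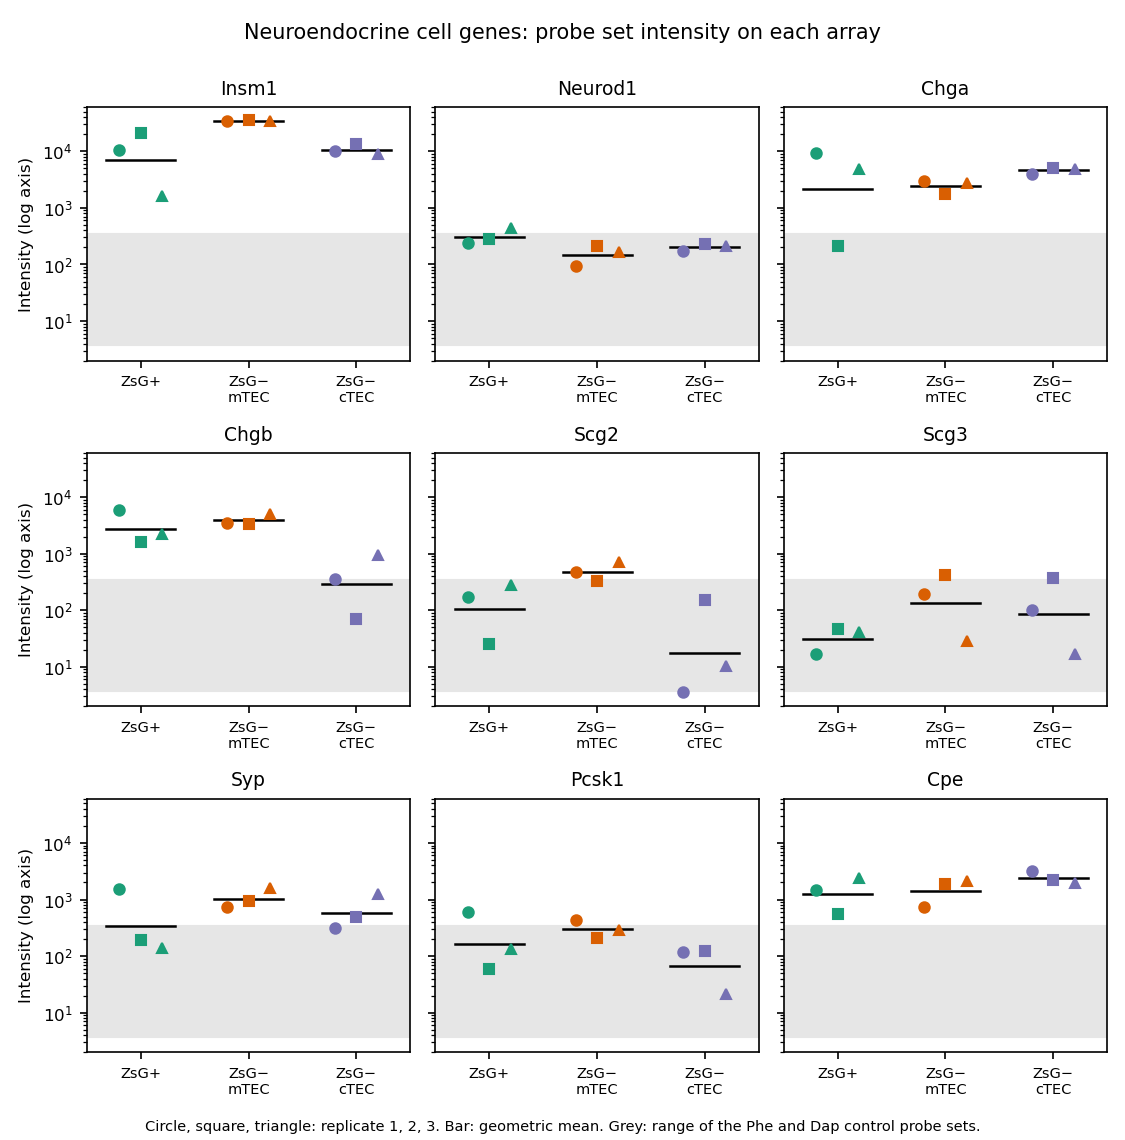
Probe set intensity (log axis) of the 9 members on each of the 9 arrays, by group; points are arrays, the bar is the geometric mean of the 3 arrays, and the grey band is the range of 6 control probe sets for bacterial genes, 3.77 to 341. All 3 ZsG minus mTEC arrays lie above every other array for Insm1, and all 3 ZsG minus cTEC arrays lie below every other array for Chgb.

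Levels are intensities on a linear scale as the authors deposited them, and a level of 1 probe set is not set against that of another. As a guide to dim values, the 6 probe sets for the bacterial control genes Phe and Dap ranged from 3.77 to 341 over the arrays. The upper end came from the 3' Dap probe set on a ZsG plus array, and the highest value on the ZsG minus arrays was 241. Insm1 and Cpe lay above the full range of 3.77 to 341 on all 9 arrays, Chga and Chgb on 8 of them and Syp on 6. Scg2, Scg3 and Pcsk1 were not above it on 7 of 9 arrays and Neurod1 on 8, so their differences compare mostly dim values. On ZsG plus arrays the median intensity over all probe sets was lower, at 230 to 316 against 366 to 424 on the other 6, and the ratio of the 3' to the 5' Gapdh control probe set was higher, at 6.71 to 10.6 against 4.55 to 5.97. The SD of the median gene over a group's arrays was 1.30 on the log2 scale for ZsG plus, 0.61 for ZsG minus cTEC and 0.63 for ZsG minus mTEC. The part of these differences in the ZsG plus results below was not tested.

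The labelled cell types were checked against fixed markers. Of 10 cortical markers, 9 were lower in ZsG minus mTEC than in ZsG minus cTEC and Foxn1 was higher, with 1, Prss16, past the threshold. In ZsG minus cTEC the summed intensity of these markers was 210787 to 280229 against 66272 to 86798 in ZsG minus mTEC. Of the 10 measured medullary markers, 9 were higher in ZsG minus mTEC than in ZsG minus cTEC, 3 of them past the threshold (Aire, Fezf2 and Hdc). They had sums of 198479 to 212607 on the ZsG minus mTEC arrays and 94129 to 106442 on those of ZsG minus cTEC. In ZsG plus these sums were 52724 to 66233 for cortical and 215059 to 262659 for medullary markers. Single bright genes made up a large part of the ZsG plus sums. Ccl25 gave 28784 to 45890 of the cortical and H2-Aa 84891 to 118661 of the medullary sum.

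The first role is that of the transcription factors. Insm1, a zinc-finger factor needed for endocrine differentiation, gave 33704, 35575 and 34457 in ZsG minus mTEC, 10288, 13670 and 8817 for ZsG minus cTEC, and 10457, 20939 and 1652 in ZsG plus. The mTEC arrays were the highest and close together, with an SD of 0.04 on the log2 scale, smaller than that of all but 0.599% of genes in that group. The ZsG plus arrays spread 12.7-fold, with replicate 3 below all other arrays. The log2 difference was -2.28 ± 0.87 (95% interval -4.23 to -0.33) for ZsG plus against ZsG minus mTEC, with an unadjusted p of 0.0267 and an adjusted p of 0.314. For ZsG minus mTEC against ZsG minus cTEC it was 1.69 ± 0.87 (-0.26 to 3.64, adjusted p = 0.495), again with no overlap between the groups. ZsG plus and ZsG minus cTEC overlapped, at -0.59 ± 0.87 (-2.54 to 1.36, adjusted p = 0.75). Errors after ± are standard errors of the limma fit, and levels of a group are geometric means.

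The dimmer Insm1 probe set ordered the groups in the same way. It gave 2520, 3015 and 3512 in ZsG minus mTEC, 463, 1156 and 1192 for ZsG minus cTEC, and 758, 852 and 380 in ZsG plus, all above the control range. Here too every ZsG minus mTEC array was above the other 6. Its difference between ZsG plus and ZsG minus mTEC was -2.25 ± 0.64 (-3.68 to -0.83), with an adjusted p of 0.188 over all probe sets with 1 symbol, and between ZsG minus mTEC and ZsG minus cTEC 1.80 ± 0.64 (0.37 to 3.22, adjusted p = 0.326). The low ZsG plus replicate 3 of the brighter probe set was the lowest array of the dimmer one as well. Without that array, the difference of the brighter probe set between ZsG plus and ZsG minus mTEC was -1.22 in place of -2.28, and that between ZsG plus and ZsG minus cTEC turned from -0.59 to 0.46.

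Neurod1, a basic helix-loop-helix factor of endocrine and neuronal cells, was dim. It gave 241, 287 and 436 in ZsG plus, 174, 227 and 214 in ZsG minus cTEC, and 93.9, 210 and 164 in ZsG minus mTEC. The ZsG plus arrays lay above all others, and only the array at 436 was above the control range. The difference was 1.07 ± 0.55 (-0.17 to 2.31, adjusted p = 0.436) against ZsG minus mTEC and 0.61 ± 0.55 (-0.63 to 1.85, adjusted p = 0.586) against ZsG minus cTEC, and -0.46 ± 0.55 (-1.70 to 0.78, adjusted p = 0.859) between the ZsG minus groups. Its dimmer probe set lay within the control range on all 9 arrays, at 4.05 to 207, and had another order of groups, with geometric means of 92 for ZsG minus mTEC, 29.4 for ZsG plus and 28.3 for ZsG minus cTEC. With the mean of both probe sets the difference between ZsG plus and ZsG minus mTEC changed sign, to -0.29.

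**Figure D2:**
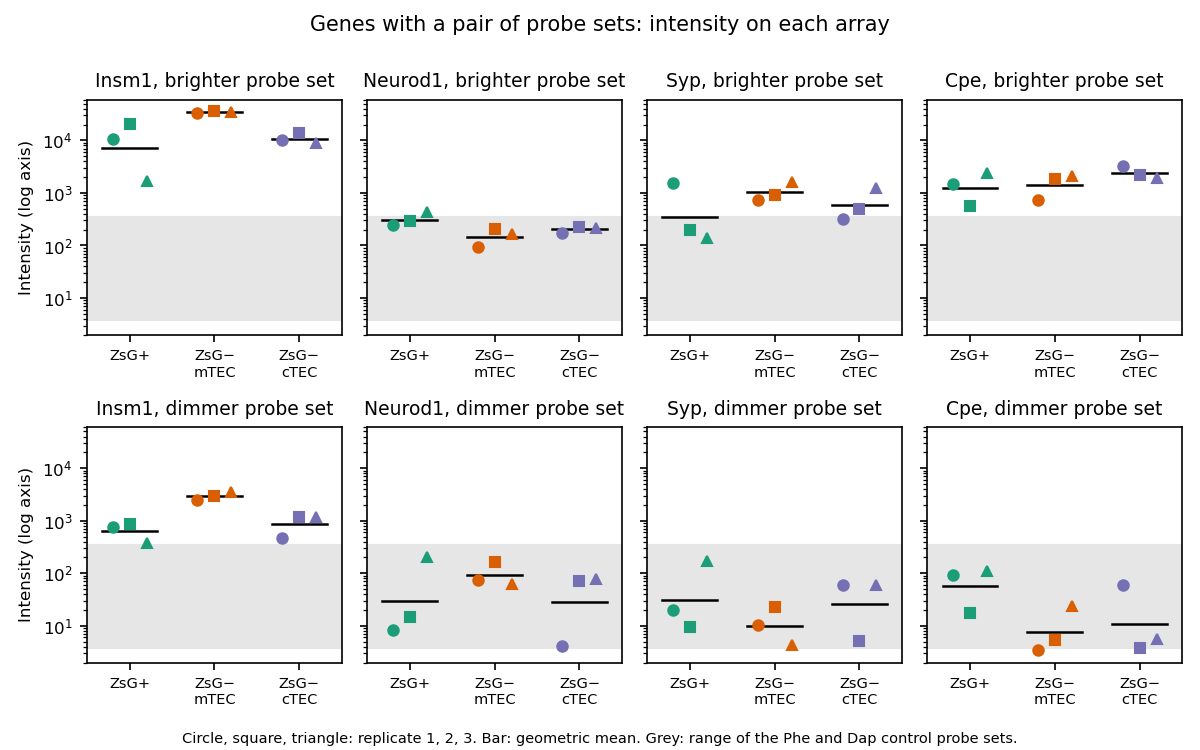
Intensity (log axis) on each array of the brighter probe set (upper row) and the dimmer one (lower row) of the 4 members with a pair of probe sets, by group; bars are geometric means of 3 arrays and the grey band is the control range. Both Insm1 probe sets are highest on the 3 ZsG minus mTEC arrays, while the dimmer probe sets of Neurod1, Syp and Cpe lie within the control range or below it on all 9 arrays.

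The granins form the second role. Promoters of granule genes are known to bind the cAMP-responsive factor CREB at the element TGACGTCA. The members' promoters were searched for it with their group levels already known. Group means of Chgb, Scg2 and Pcsk1 fell from ZsG minus mTEC to ZsG plus to ZsG minus cTEC, and those of Chga did not. No difference behind this order passed the threshold. The arrays of ZsG plus and ZsG minus mTEC overlapped for Chgb and Pcsk1, and Scg2 and Pcsk1 were dim on most arrays. RefSeq windows of assembly GRCm38.p6 were given for 7 of the 9 members, with none for Insm1 and Cpe. The 250 bases before the transcription start are shown for Chgb (chr2:132781392-132781641, plus strand), Scg2 (chr1:79440027-79440276, minus strand) and Chga (chr12:102554691-102554940, plus strand), with the element, or its core TGACG in Chga, in capitals.
Chgb: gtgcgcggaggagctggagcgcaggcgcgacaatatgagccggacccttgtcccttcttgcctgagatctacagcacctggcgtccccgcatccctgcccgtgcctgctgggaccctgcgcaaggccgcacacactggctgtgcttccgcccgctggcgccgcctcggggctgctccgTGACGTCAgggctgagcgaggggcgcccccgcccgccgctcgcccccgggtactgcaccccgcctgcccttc
Scg2: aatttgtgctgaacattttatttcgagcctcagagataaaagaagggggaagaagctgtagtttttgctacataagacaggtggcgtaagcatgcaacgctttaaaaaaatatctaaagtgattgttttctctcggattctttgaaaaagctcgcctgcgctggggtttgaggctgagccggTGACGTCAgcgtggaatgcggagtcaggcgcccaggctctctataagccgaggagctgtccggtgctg
Chga: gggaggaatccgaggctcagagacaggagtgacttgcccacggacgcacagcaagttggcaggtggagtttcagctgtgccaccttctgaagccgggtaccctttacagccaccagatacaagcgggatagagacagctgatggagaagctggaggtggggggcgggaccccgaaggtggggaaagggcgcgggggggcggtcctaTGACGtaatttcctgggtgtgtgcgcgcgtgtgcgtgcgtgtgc
The element began 72 bases before the start in Chgb and 68 in Scg2. In Chga an exact core began 44 bases before the start, within the letters TGACGtaa. Only exact matches were searched, so near matches to the full element, such as these letters, were not counted. The full element was also found 78 bases before the start of Pcsk1, so that 3 of 7 members' windows held it, against 1.55% of 32851 RefSeq windows of 250 bases. The core, read on both strands and contained in every full element, was in 5 of 7 members' windows, those of Chga, Chgb, Scg2, Scg3 and Pcsk1, against 17.8% of all windows. The windows of Pcsk1 and Scg3 lie before a start that is not the outer end of the gene; without them the element was in 2 of 5 members' windows and the core in 3 of 5. The E-box CAGATG, a form that NeuroD factors bind, was read on both strands and was in 0 of 7 against 14.4%. A match is a description of the letters. Neither binding nor a part of the element in the order of groups was tested.

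Chgb encodes chromogranin B, a granule matrix protein. It gave 359, 70.3 and 960 in ZsG minus cTEC, 5834, 1639 and 2246 in ZsG plus, and 3436, 3319 and 5072 in ZsG minus mTEC. Every ZsG minus cTEC array was below the other 6, and their geometric mean of 289 was within the control range, while ZsG plus and ZsG minus mTEC overlapped. The log2 difference was 3.26 ± 0.94 (1.14 to 5.39) for ZsG plus against ZsG minus cTEC, with an unadjusted p of 0.00681 and an adjusted p of 0.116. For ZsG minus mTEC against ZsG minus cTEC it was 3.74 ± 0.94 (1.62 to 5.86), with an unadjusted p of 0.00307 and an adjusted p of 0.123. This last difference passed under 2 of its 19 alternative settings, with limma array weights (3.95, adjusted p = 0.0226) and with an offset of 64 before the log (3.34, adjusted p = 0.0491), and its adjusted p ranged up to 0.317. Leaving out 1 array moved it between 2.72 and 4.61, and the difference of ZsG plus from ZsG minus cTEC between 2.24 and 4.13. Between ZsG plus and ZsG minus mTEC it was -0.48 ± 0.94 (-2.60 to 1.65, adjusted p = 0.852).

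Scg2 encodes secretogranin II, the precursor of secretoneurin. It gave 3.53, 154 and 10.3 in ZsG minus cTEC, 169, 25.4 and 281 in ZsG plus, and 469, 332 and 728 in ZsG minus mTEC. The ZsG minus mTEC arrays were the 3 highest of the 9, and the ZsG minus cTEC arrays all lay in or just below the control range. The difference between ZsG minus mTEC and ZsG minus cTEC was 4.77 ± 1.37 (1.68 to 7.85), with an unadjusted p of 0.00661 and an adjusted p of 0.171, and its size rests on ZsG minus cTEC levels as low as 3.53. ZsG plus was 2.19 lower than ZsG minus mTEC on the log2 scale, written -2.19 ± 1.37 (-5.27 to 0.90, adjusted p = 0.514), with no overlap of arrays. Against ZsG minus cTEC it was 2.58 ± 1.37 (-0.50 to 5.67, adjusted p = 0.345), with overlap.

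Chga encodes chromogranin A, the most widely used circulating marker of neuroendocrine tumours. It gave 3928, 5151 and 4908 in ZsG minus cTEC, 2994, 1774 and 2753 in ZsG minus mTEC, and 9386, 216 and 4774 in ZsG plus. ZsG minus cTEC lay above ZsG minus mTEC with no overlap, the opposite order to Chgb and Scg2, at -0.92 ± 1.21 for ZsG minus mTEC against ZsG minus cTEC (-3.64 to 1.80, adjusted p = 0.881). ZsG plus held both the highest and the lowest of the 9 arrays, 43.4-fold apart, an SD of 2.90 on the log2 scale that was above the SD of 91.7% of genes in that group. Its differences were -0.20 ± 1.21 (-2.92 to 2.52, adjusted p = 0.958) against ZsG minus mTEC and -1.12 ± 1.21 (-3.84 to 1.60, adjusted p = 0.653) against ZsG minus cTEC. Without ZsG plus replicate 2, the array at 216, both changed sign, to 1.45 and 0.53.

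Scg3 encodes secretogranin III, which binds chromogranin A to the granule membrane. It gave 193, 424 and 28.9 in ZsG minus mTEC, 101, 379 and 17.2 for ZsG minus cTEC, and 16.6, 46 and 41 in ZsG plus. All pairs of groups overlapped, and 2 arrays were above the control range. The differences were -2.08 ± 1.27 (adjusted p = 0.505) for ZsG plus against ZsG minus mTEC, -1.46 ± 1.27 (adjusted p = 0.569) against ZsG minus cTEC, and 0.62 ± 1.27 (adjusted p = 0.944) between the ZsG minus groups.

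Syp encodes synaptophysin, a membrane protein of small synaptic-like vesicles. It gave 724, 931 and 1607 in ZsG minus mTEC, 314, 499 and 1230 for ZsG minus cTEC, and 1513, 194 and 140 in ZsG plus. ZsG plus replicate 1 was among the 2 highest arrays and replicates 2 and 3 were the 2 lowest. No pair of groups was separate, with differences of -1.57 ± 0.95 (-3.72 to 0.58, adjusted p = 0.505) for ZsG plus against ZsG minus mTEC, -0.74 ± 0.95 (-2.89 to 1.41, adjusted p = 0.71) against ZsG minus cTEC and 0.83 ± 0.95 (-1.32 to 2.98, adjusted p = 0.848) between the ZsG minus groups. The dimmer Syp probe set, at 4.25 to 169, was within the control range on all 9 arrays.

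The processing enzymes come last. Pcsk1, the prohormone convertase that makes the first cuts in many peptide precursors, gave 435, 205 and 295 in ZsG minus mTEC, 117, 122 and 21.6 for ZsG minus cTEC, and 592, 58 and 134 in ZsG plus. All ZsG minus mTEC arrays were above all ZsG minus cTEC arrays, with a difference of 2.14 ± 0.98 (-0.07 to 4.36, adjusted p = 0.424). ZsG plus overlapped both, at -0.84 ± 0.98 (-3.06 to 1.38, adjusted p = 0.73) against ZsG minus mTEC and 1.30 ± 0.98 (-0.91 to 3.52, adjusted p = 0.509) against ZsG minus cTEC.

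Cpe, the carboxypeptidase that trims the ends left by the convertases, was above the control range on every array. It gave 3193, 2201 and 1932 in ZsG minus cTEC, 749, 1851 and 2101 in ZsG minus mTEC, and 1497, 553 and 2353 in ZsG plus. The groups overlapped in all 3 comparisons, and the differences were -0.19 ± 0.71 (-1.78 to 1.40, adjusted p = 0.928) for ZsG plus against ZsG minus mTEC, -0.93 ± 0.71 (-2.52 to 0.66, adjusted p = 0.509) against ZsG minus cTEC and -0.74 ± 0.71 (-2.33 to 0.85, adjusted p = 0.798) between the ZsG minus groups. The dimmer Cpe probe set was within the control range or below it, at 3.51 to 111. Its geometric mean was highest in ZsG plus, at 56, and with the mean of both probe sets the differences of ZsG plus turned to 1.34 and 0.73.

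**Figure D3:**
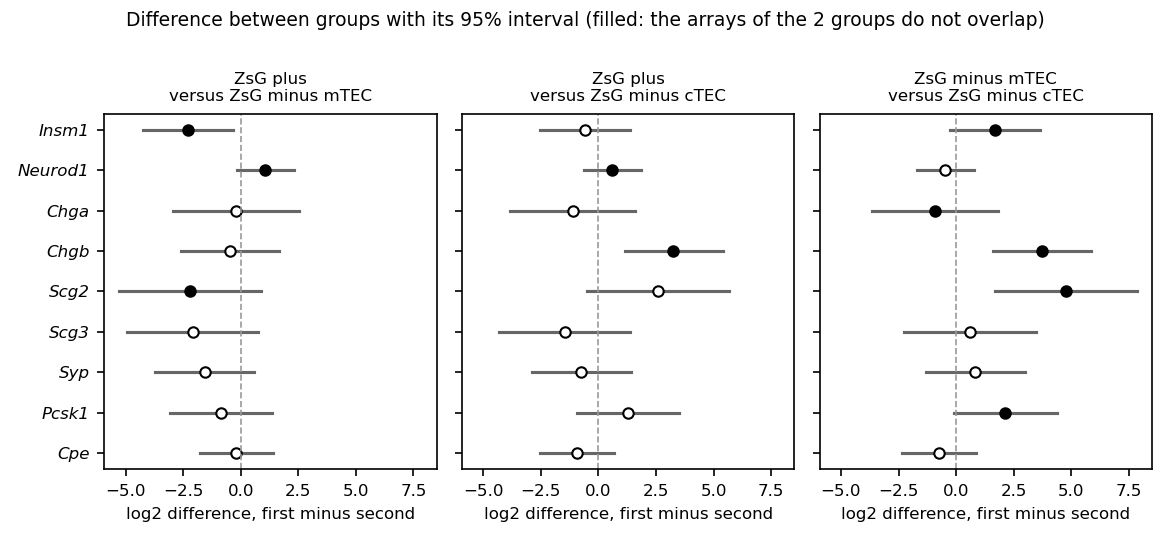
Log2 difference of each member with its 95% interval from limma, for the 3 comparisons; filled points mark groups whose arrays do not overlap. The intervals of Insm1 in the first panel, Chgb in the second, and Chgb and Scg2 in the third lie on 1 side of 0, before adjustment over all genes.

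Read over the whole set, most members were lower in ZsG plus when set against ZsG minus mTEC, without passing the test, and were divided against ZsG minus cTEC. Against ZsG minus mTEC, 8 of 9 were below 0 and Neurod1 was above it, with a median of -0.84. Of all 18194 genes, 11100 were below 0 in that comparison, with a median of -0.33. Against ZsG minus cTEC, 4 were above 0 and 5 below, with a median of -0.59 against -0.14 for all genes. Between ZsG minus mTEC and ZsG minus cTEC, 6 were above 0 and 3 below, with a median of 0.83 against 0.09. Centring each array on its median moved the median of all genes to 0.21, 0.40 and 0.10 in these 3 comparisons, and with it Chga, Chgb and Cpe came out above 0 against ZsG minus mTEC, at 0.34, 0.06 and 0.34. The comparisons share groups, so their values are set side by side and are not independent.

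At an unadjusted p under 0.05 in limma, 1 of 9 members differed between ZsG plus and ZsG minus mTEC (Insm1), where 13.4% of all genes did. The count was 1 between ZsG plus and ZsG minus cTEC (Chgb), against 18.7% of all genes, and 2 between ZsG minus mTEC and ZsG minus cTEC (Chgb and Scg2), against 12.3%. Groups did not overlap for 3 members in the first comparison (Insm1, Neurod1 and Scg2), where they did not for 18.1% of all genes. In the second it was 2 members (Neurod1 and Chgb) against 23.3%, and in the third 5 members (Insm1, Chga, Chgb, Scg2 and Pcsk1) against 28.5%. With 9 members each count moves by a whole gene, and none of these counts is read as particular to the set.

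Across the 9 arrays the members did not rise and fall as 1 unit. Scg2 with Pcsk1 (Pearson r = 0.687) and Chga with Cpe (0.666) were the most alike pairs in log2 intensity, and Insm1 with Neurod1 the least (-0.724). Chga with Chgb was at -0.104. Array scaling and group differences are shared by all points in these correlations, which are descriptions over 9 arrays.

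The gene most like each member was taken from 10911 genes at or above the 40th percentile of mean intensity, by Pearson r over the same 9 arrays. It was Slc35g1 for Insm1 (r = 0.973), Shisa7 for Neurod1 (0.957), Phf13 for Chga (0.971), Cyp2g1 for Chgb (0.986), Cd177 for Scg2 (0.935), Fam133b for Scg3 (0.907), Prkrip1 for Syp (0.951), Tmem19 for Pcsk1 (0.951) and Emd for Cpe (0.934). Cyp2g1, the gene nearest to Chgb, gave 469, 208 and 933 in ZsG minus cTEC, 5399, 1378 and 2119 in ZsG plus, and 3570, 2757 and 4328 in ZsG minus mTEC, so the 3 arrays of each group stood in the same order as for Chgb. Slc35g1 gave 1807, 1790 and 1955 in ZsG minus mTEC and 309, 943 and 48.3 in ZsG plus, with ZsG plus replicate 3 the lowest of its group as for Insm1. Both genes were picked for the highest r among 10911, so a shared order of arrays comes with the choice and is a description only.

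Other genes of the same machinery were read from 4 lists: granule biogenesis and peptide processing (22 of 24 genes measured), regulated exocytosis and synaptic vesicles (27 of 28), neuroendocrine transcription factors (22 of 26) and neuroendocrine peptides (19 of 20). Of the 90 genes measured, 5 passed the threshold in ZsG plus against ZsG minus cTEC, which is 5.56% beside 1.74% of all genes. All 5 were higher in ZsG plus. Between ZsG minus mTEC and ZsG minus cTEC, 6 passed it, all higher in ZsG minus mTEC, which is 6.67% beside 0.627%. In the comparison of ZsG plus with ZsG minus mTEC, limma called 0 of 90, with 20 at an unadjusted p under 0.05, of which 19 were lower in ZsG plus. Of all 18194 genes, 0.220% were called there and 2437, or 13.4%, had an unadjusted p under 0.05, of which 1855 were lower in ZsG plus. These shares describe the lists, whose genes were not drawn at random.

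The peptide hormones held most of these calls. Calcb, a calcitonin gene-related peptide, gave 1963, 3126 and 3071 in ZsG minus cTEC, 35982, 31938 and 22650 in ZsG plus, and 33434, 33719 and 33892 in ZsG minus mTEC. Against ZsG minus cTEC it rose by 3.48 ± 0.51 (adjusted p = 0.0225) in ZsG plus and by 3.66 ± 0.51 (adjusted p = 0.0324) in ZsG minus mTEC. Nts, neurotensin, rose by 4.29 ± 0.60 (adjusted p = 0.0206) and 4.58 ± 0.60 (adjusted p = 0.0324). Pyy, the gut hormone peptide YY, gave 162, 27.3 and 312 in ZsG minus cTEC, 2823, 4467 and 3338 in ZsG plus, and 3501, 3319 and 3627 in ZsG minus mTEC, a rise of 4.96 ± 0.84 in both (adjusted p = 0.0332 and 0.0457). In all of these genes ZsG plus and ZsG minus mTEC overlapped, while ZsG minus cTEC was separate. All Pyy values of ZsG minus cTEC lie within the control range, and leaving out 1 array moved both of its rises between 3.95 and 5.71, so their size is loosely fixed.

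Gcg, the glucagon precursor, had 3 groups that did not overlap. It gave 75.9, 36 and 18.9 in ZsG minus cTEC, 297, 447 and 305 in ZsG plus, and 1685, 1689 and 1832 in ZsG minus mTEC. It rose by 3.20 ± 0.62 (adjusted p = 0.042) in ZsG plus and by 5.54 ± 0.62 (adjusted p = 0.0323) in ZsG minus mTEC against ZsG minus cTEC, and the step between ZsG plus and ZsG minus mTEC, -2.34 ± 0.62, did not pass (adjusted p = 0.171). All ZsG minus cTEC arrays and the ZsG plus arrays at 297 and 305 were not above the control range, so the size of these rises rests on dim values. Cartpt, which encodes a neuropeptide precursor, rose by 4.85 ± 0.60 (adjusted p = 0.0324) in ZsG minus mTEC, from 10.3, 5.99 and 7.51 in ZsG minus cTEC to 165, 181 and 373, values that lie mostly within the control range. In ZsG plus it gave 12.5, 24 and 29.9, with a difference from ZsG minus cTEC of 1.42 ± 0.60 (adjusted p = 0.247).

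The remaining call was Cadps, which primes dense-core granules for release. It gave 376, 633 and 753 in ZsG minus cTEC, 8903, 3803 and 6247 in ZsG plus, and 9318, 12238 and 10303 in ZsG minus mTEC, a rise of 3.40 ± 0.57 (adjusted p = 0.03) and 4.23 ± 0.57 (adjusted p = 0.0324). Its probe set carries a suffix for probes that can match more than a single transcript.

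These calls depended on single arrays, although none of the called differences changed sign. The 5 in ZsG plus against ZsG minus cTEC became 0, 0 and 1 without ZsG minus cTEC replicates 1, 2 and 3, and 2, 2 and 0 without ZsG minus mTEC replicates 1, 2 and 3, which enter through the shared spread. They became 9 without ZsG plus replicate 1 and 8 without replicate 3. The 6 in ZsG minus mTEC against ZsG minus cTEC became 0 without any 1 of the 6 ZsG minus arrays, and 17 without ZsG plus replicate 3. Calls among all genes moved as well when 1 array was left out. They went from 317 to between 0 and 735 for ZsG plus against ZsG minus cTEC. Between the ZsG minus groups they went from 114 to between 0 and 304. The moves are therefore not read as particular to the lists.

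The brightest genes of the lists that passed in no comparison were these. Among granule and processing genes, Eno2, a neuronal enolase, had geometric means of 11737 for ZsG plus, 7591 for ZsG minus mTEC and 5739 for ZsG minus cTEC. Pam, which amidates peptides, had 2647, 8493 and 3350 in that order, and Cpd, a carboxypeptidase related to Cpe, 6943, 7502 and 2971. The ZsG plus mean of Cpd comes from arrays at 1727, 5186 and 37370, and that of Pam from 6364, 514 and 5666. Among exocytosis genes the calcium sensor Syt1 had 11678, 11456 and 1753, with an adjusted p of 0.0551 for ZsG plus against ZsG minus cTEC. The vesicle SNARE Vamp2 had 16683, 13314 and 6049, with ZsG plus arrays at 3553, 37773 and 34594. Sypl, a relative of Syp, had 47616, 37040 and 27565.

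Among the transcription factors, Isl1 had 3516 for ZsG plus, 1530 for ZsG minus mTEC and 1763 for ZsG minus cTEC. Rest, a repressor of neuronal genes in other tissues, had 2524, 870 and 3233, with ZsG plus arrays spread over 726, 1944 and 11390. Its ZsG minus mTEC arrays were below all ZsG minus cTEC arrays, with a difference of -1.89 ± 0.94 (adjusted p = 0.469). Foxa1 had 513, 1696 and 363. Among the peptides, Grp had 3618, 5076 and 777, Tac1 had 1493, 2949 and 491, and Pomc had 647, 5467 and 510. The ZsG plus arrays ranged from 1957 to 10028 for Grp, from 321 to 4388 for Tac1 and from 69.7 to 2257 for Pomc. The probe set of Pomc and the dimmer ones of Syp and Cpe also carry a suffix for probes that can match more than a single transcript. Leaving out 1 array changed the sign of at least 1 difference of ZsG plus for Cpd, Pam, Vamp2, Syt1, Rest, Tac1 and Pomc. Isl1, Sypl and Grp kept their signs there. Under 1 of the 19 alternative settings each, their differences from ZsG minus mTEC changed sign, to -0.64, -1.36 and 0.05. Against ZsG minus cTEC, those of Isl1 and Sypl also changed sign under 1 setting each, to -0.81 and -0.52.

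**Figure D4:**
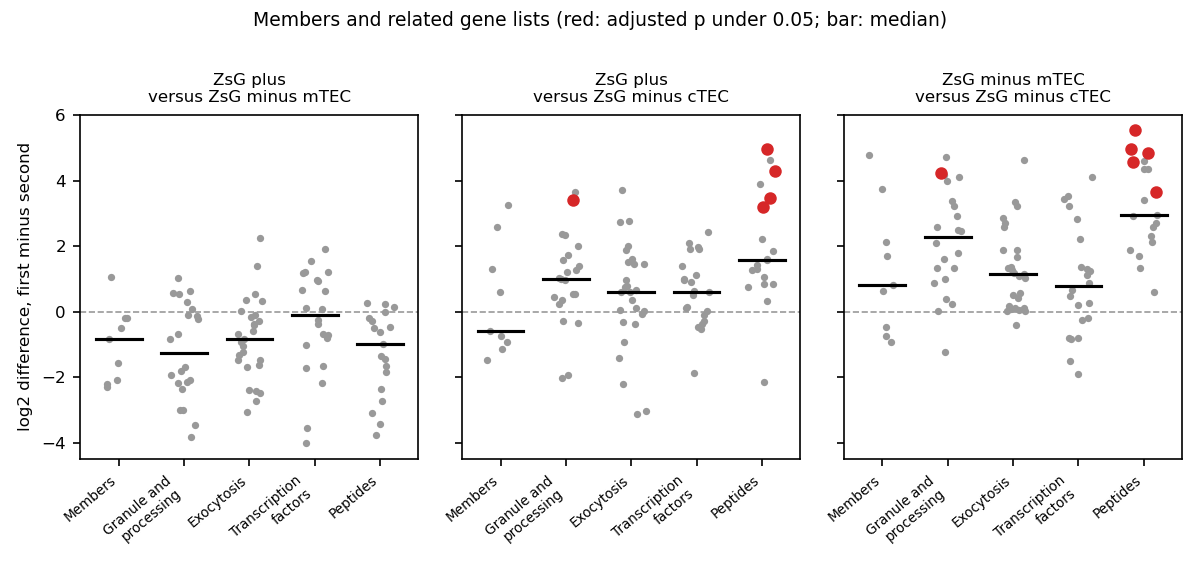
Log2 difference of each measured gene of the members and of the 4 related lists in the 3 comparisons; red points passed an adjusted p of 0.05 in limma and bars are medians. No point is red in the first panel; 5 are in the second and 6 in the third, all above 0 and most of them peptides.

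The median difference of the 19 peptide genes was 1.58 for ZsG plus against ZsG minus cTEC and 2.95 for ZsG minus mTEC against ZsG minus cTEC, and all 19 were above 0 in the latter. For the 22 granule genes these medians were 1.01 and 2.28, for the 27 exocytosis genes 0.60 and 1.14, and for the 22 transcription factors 0.62 and 0.78. Against ZsG minus mTEC the medians of ZsG plus were -0.98, -1.25, -0.84 and -0.08 in the same order, beside -0.33 for all genes. The ZsG minus cTEC means of 12 peptide, 12 granule, 17 exocytosis and 19 transcription factor genes were not above the control range. In ZsG plus these counts were 7, 9, 13 and 14, and in ZsG minus mTEC 4, 3, 11 and 15. The size of the medians therefore rests in part on dim values.

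Thymocyte, T cell and fibroblast markers moved with the comparisons to ZsG minus cTEC. The 11 measured thymocyte and T cell markers had sums of 51623 to 66669 on the ZsG minus cTEC arrays. Their sums were 9582 to 12936 on those of ZsG minus mTEC and 10914 to 19852 on those of ZsG plus. All 11 were below 0 in both comparisons with ZsG minus cTEC. The threshold was passed by 2 of them for ZsG plus and by 1 for ZsG minus mTEC. The 8 fibroblast markers had sums of 42157 to 60239, 5617 to 9407 and 5232 to 25822. Of these, 7 were below 0 in each comparison with ZsG minus cTEC, with 2 past the threshold for ZsG plus and 1 for ZsG minus mTEC. For the 10 measured neuron and glia markers, none of which passed, the sums were 4575 to 5518, 6784 to 7599 and 2446 to 16941, and 8, 7 and 7 of the 10 had group means within the control range. None of the 8 tuft, 10 dendritic cell and macrophage and 5 endothelial markers measured passed in any comparison. In the same order of groups, the tuft sums were 9309 to 33900, 21880 to 24529 and 27130 to 41606. Those of dendritic cells and macrophages were 14554 to 43931, 37531 to 52733 and 31140 to 96841. Lyz2 alone made up a large part of them, at 6909 to 30493, 31836 to 39773 and 19065 to 66337. Of these 10 markers 4, 7 and 4 had group means within the control range. Endothelial sums were 1798 to 1963, 405 to 1374 and 1093 to 2378. No marker of any list passed between ZsG plus and ZsG minus mTEC. The part of these cells in the differences of Chgb, Scg2 and the peptides was not tested. In sorted bulk samples such as these, fewer cells of a type and less RNA per cell cannot be told apart.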

How the data were processed

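RNA from sorted thymic cells (5 ng per sample, amplified with a WT-Ovation Pico kit, per the labels' protocols) was hybridised to 9 single-colour mouse arrays of 45101 probe sets. The values are intensities on a linear scale that the authors deposited. Their software is not given in the sources used here. With 2% removed at each end, every array had a mean of 1250, which shows a scaling to the same trimmed mean. No pair of arrays was identical. With 3 arrays a group, their number limits the precision.

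The log2 of each intensity was used without an offset. Symbols came from the platform annotation (34958 probe sets with 1 symbol, 932 with several, 9211 with none). For each of 18194 genes the brightest probe set with 1 symbol was tested with limma 3.58.1 (R 4.3.3, lmFit and eBayes, 1 coefficient per group over 9 arrays, two-sided), adjusted by Benjamini-Hochberg over all genes. The fit of all probe sets with 1 symbol gave the values of dimmer probe sets. The steps were tested on simulated data. Figures were drawn with matplotlib 3.10.9.

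Named genes were all members, up to 4 called genes per list and direction, the 3 brightest others of each list, and for each member the gene most like it. The members, lists and rule were chosen with earlier results of these data known. Alternatives covered the probe set rule, scaling, an offset, a filter on dim genes, the arrays fitted, weights, trend, a replicate block and leaving out each array. Alternatives for the 4 related lists were added after the data were seen.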

Additional observations from a re-analysis of the deposited data

Results flagged for a closer look

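Control probe sets outside the gene measurements stood apart between the groups. The 3' probe set of the bacterial Lys control gave 98272 to 251468 in ZsG plus and 6607 to 33314 over the 6 ZsG minus arrays, so the lowest ZsG plus array was 2.95 times the highest ZsG minus array. This ratio was 2.56 for the 5' and 2.32 for the middle Lys probe set. The 3' probe set of the Thr control gave 3222 to 6943 in ZsG plus and 82.4 to 604 over the ZsG minus arrays, a ratio of 5.34, while the other Thr probe sets overlapped. The Phe and Dap control probe sets used here as a guide to dim values overlapped between these groups.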

How the results depend on the processing

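Over 27 pairs of member and comparison, 501 values were recomputed, with 19 alternatives for each pair and 18 for Neurod1, Scg2, Scg3 and Pcsk1, which the filter at the 40th percentile left out. Direction and side of the threshold held in 483 of them. Chgb between ZsG minus mTEC and ZsG minus cTEC passed in 2, at 3.34 with an offset of 64 and 3.95 with array weights, which made the count of members called 1 in each. The sign changed in 16. With the mean of a gene's probe sets these were, for ZsG plus against ZsG minus mTEC, Neurod1 at -0.29, Syp at 0.05 and Cpe at 1.34, for ZsG plus against ZsG minus cTEC, Cpe at 0.73, and between the ZsG minus groups Neurod1 at 0.62 and Syp at -0.29. With each array centred on its median, Chga was 0.34, Chgb 0.06 and Cpe 0.34 for ZsG plus against ZsG minus mTEC. Leaving out 1 array at a time gave, for ZsG plus against ZsG minus mTEC, -1.27 to 1.45 for Chga and -0.66 to 0.39 for Cpe, for ZsG plus against ZsG minus cTEC, -2.19 to 0.53 for Chga and -1.37 to 0.46 for Insm1, and between the ZsG minus groups -0.55 to 1.72 for Scg3. The cause was not tested. Counts of all genes called moved widely: from 40 to between 0 and 230 for ZsG plus against ZsG minus mTEC, from 317 to between 0 and 735 for ZsG plus against ZsG minus cTEC, and from 114 to between 0 and 1220 between the ZsG minus groups. Of 206 recomputed values for the 11 called pairs of list gene and comparison, 86 were no longer past the threshold and 0 changed sign. Calls in the 4 lists were 0 in ZsG plus against ZsG minus cTEC with only the 6 arrays compared and with array weights, and 18 and 26 between the ZsG minus groups. Counts of all genes moved with the settings too, as given above, so these moves are not read as particular to the lists. With the replicate block, 0 members, 0 list genes and 0, 16 and 0 genes of all were called in the 3 comparisons. Deviations of same-numbered arrays correlated at -0.015 to 0.0132, while 7 of 9 arrays were closest to an array of their own number. These checks point different ways, so whether the numbers pair the samples is not settled.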
